A study of Mus musculus with 6 samples.

Results

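The genes described here are those of the vacuolar proton pump and of the intercalated cells of the kidney, in kidneys of ERRa KO mice, which lack the orphan nuclear receptor ERRα, and of WT mice. A gene was included when its symbol on the array begins with Atp6v, or when it is Atp6ap1, Slc4a1, Slc26a4, Foxi1, Slc4a9, Insrr, Hmx2, Rhbg or Rhcg. That gave 29 of the 18193 genes measured, 20 of them subunits of the pump and 9 others. The pump subunits Atp6v0c and Atp6v1g3 are not analysed here.

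RNA was taken from 3 ERRa KO and 3 WT kidney samples, all from males aged 2-3 months on a standard diet and a 12h light cycle, and hybridised to Affymetrix arrays, 1 per sample. Left and right kidneys of a mouse were ground together, so each value mixes every cell type of the organ, and fewer intercalated cells and less RNA per cell cannot be told apart. The strain, the part of the gene removed and the tissues in which it is missing are not given in the labels. The titles call the samples biological replicates but do not state that each is another animal. P-values therefore measure the spread between these samples.

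Intercalated cells lie in the connecting tubule and collecting duct. Type A cells secrete acid by pumping protons into the urine with a vacuolar proton pump (V-ATPase) and returning bicarbonate to the blood through the anion exchanger Slc4a1, while type B cells secrete bicarbonate through the exchanger pendrin, Slc26a4. The V-ATPase has a cytoplasmic sector, V1, that splits ATP, and a membrane sector, V0, that carries the protons. Most subunits are made in every cell, where the pump acidifies lysosomes and endosomes, and some have isoforms enriched in intercalated cells.

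Values are log2 RMA values, a scale on which a difference of 1 is a doubling. Differences are ERRa KO minus WT, with the standard error (SE) of a limma fit over all genes, and a gene was called changed at a Benjamini-Hochberg adjusted p under 0.05. Esrra, which encodes ERRα, read 6.66, 6.51 and 6.41 in the ERRa KO arrays and 9.43, 9.43 and 9.52 in the WT arrays, a log2 change of -2.93 (SE 0.08, adjusted p = 9.85e-06), which follows the sample labels. Column heads in a second deposited table carry the genotypes the other way round, and under them every sign below would turn. The kidney genes Umod and Slc22a6 read 13.24 and 12.43 on average in ERRa KO arrays and 13.52 and 12.57 in WT arrays. ERRa KO replicate 3 carried liver transcripts: 19 of 21 measured liver genes read highest there, on average 2.31 above the WT mean, against -0.05 and 0.04 in the other ERRa KO arrays.

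The 3 anion exchangers among these genes, Slc4a1, Slc26a4 and Slc4a9, read lower in ERRa KO kidneys. The V0 sector read slightly lower, and the V1 sector neither way as a group. None of the 29 genes was called in the gene table, where 0.495% of all genes were. A mean below WT was found for 22 of the 29, against 47.4% of all genes. The median log2 change was -0.08 over the 29 genes, -0.06 over the pump subunits and -0.16 over the other 9, and 0.0070 over all genes. At an unadjusted p under 0.05, 6 of the 29 read lower, against 6.2% of all genes, and 1 read higher, against 6.22%. Every ERRa KO array lay below every WT array in 7 genes, against 9.56% of all genes, and above it in 1, against 9.11%. Leaving out WT replicate 3 left 3 genes lower at an unadjusted p under 0.05. Leaving out ERRa KO replicate 1, WT replicate 1 or WT replicate 2 left 0 higher. The shares of all genes at that p with 1 array left out are not given here. The median over the pump subunits was -0.03 without ERRa KO replicate 3. With 5 arrays non-overlap is more common in all genes too: the genotypes did not overlap in the lower direction for 13 of the 29 genes without WT replicate 1, against 15.1% of all genes, for 11 without ERRa KO replicate 1, against 15.5%, and for 11 without WT replicate 3, against 13.8%.

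**Figure D1:**
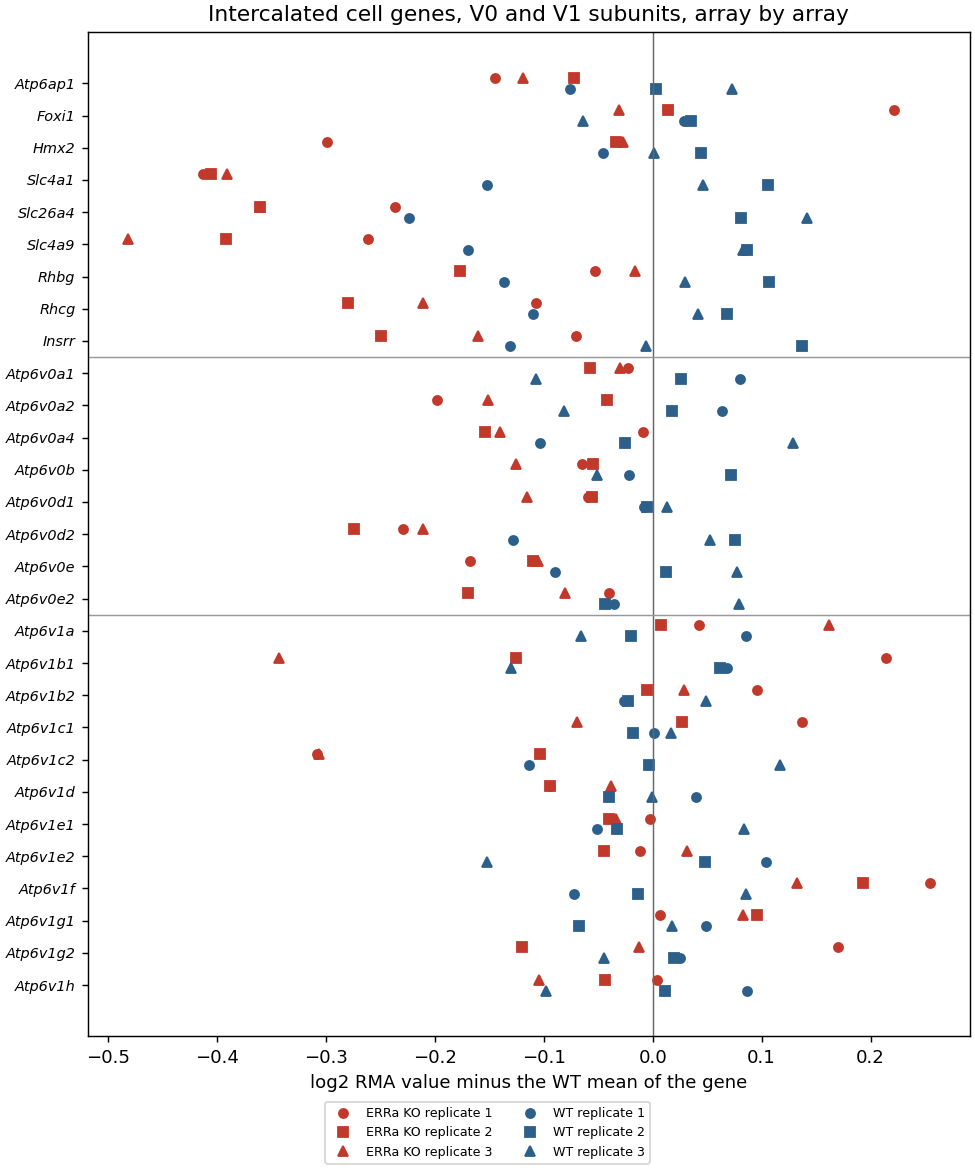
Log2 RMA value of each gene on each array minus the gene's WT mean, with ERRa KO arrays in red above WT arrays in blue and a symbol for each replicate; lines divide the 9 other genes, the 8 V0 subunits and the 12 V1 subunits. The exchangers Slc4a1, Slc26a4 and Slc4a9 lie furthest left in ERRa KO arrays, and WT replicate 1 is the lowest WT array in 8 of the 9 genes at the top.

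Slc4a1 encodes band 3, the chloride-bicarbonate exchanger of the basolateral membrane of type A cells and of the red cell membrane. The array reads it with 3 probe sets. The brightest read 8.44, 8.45 and 8.46 in ERRa KO arrays and 8.70, 8.96 and 8.90 in WT arrays. All ERRa KO arrays lay below all WT arrays, and the ERRa KO arrays were nearly identical. The difference was -0.40 (SE 0.08), a level 1.32-fold higher in WT, with an adjusted p of 0.0831 that misses the threshold. It was called among genes above the median level (adjusted p = 0.033) and with a trended and robust variance prior (adjusted p = 0.0138), and over all alternatives the adjusted p reached 0.287.

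The second Slc4a1 probe set was the only 1 of the 54 probe sets of these genes that was called in a fit over all probe sets, where 0.111% were. At an unadjusted p under 0.05, 9 of the 54 read lower, against 5.77% of all probe sets, and 2 read higher, against 5.1%. It read 7.11, 7.20 and 7.28 in ERRa KO arrays and 7.85, 7.86 and 8.04 in WT arrays, without overlap. Slc4a1 thus fell by 0.72 on the log2 scale by this probe set (SE 0.08, adjusted p = 0.0249). The authors' deposited table gives it a log2 fold change of -0.72 with an unadjusted p of 0.000781. These come from the same 6 arrays and are no independent measurement. The name of this probe set carries the suffix that Affymetrix gives to probe sets with probes matching other transcripts. The call was lost when any of the 6 arrays was left out, with adjusted p from 0.0539 to 0.115. It was also lost with the replicate number as a block and with the equal-variance test. Over all alternatives the adjusted p reached 0.266. The dimmest probe set read 4.33, 4.34 and 4.41 in ERRa KO arrays and 4.28, 4.71 and 4.53 in WT arrays, so that the genotypes overlapped (log2 change -0.14, adjusted p = 0.687).

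Because red cells also contain Slc4a1 RNA, red cell transcripts were read beside it. Of 10 measured, 7 had a mean above WT and 3 below it, and their median difference was 0.05 on the log2 scale. None was called by limma, and at an unadjusted p under 0.05 there were 0 lower and 3 higher. Alas2, the enzyme that starts haem synthesis in red cells, read 7.37, 6.93 and 7.31 in ERRa KO arrays and 5.69, 6.07 and 6.98 in WT arrays (log2 change 0.96, adjusted p = 0.247). The other 2 were Klf1, a transcription factor of red cell precursors (0.35, adjusted p = 0.211), and the globin gene Hbb-b2 (0.39, adjusted p = 0.212). The list averaged 0.17, 0.18 and 0.20 above the WT mean in the ERRa KO arrays and -0.07, -0.06 and 0.13 from it in the WT arrays, and its part in the Slc4a1 values was not tested.

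Both exchangers of type B cells read lower as well, and neither was called. Slc26a4, pendrin, the apical chloride-bicarbonate exchanger, read 9.45, 9.33 and 9.33 in ERRa KO arrays and 9.46, 9.77 and 9.83 in WT arrays. WT replicate 1 lay just above the highest ERRa KO array and the other WT arrays well above it. The difference was -0.32 (SE 0.10, adjusted p = 0.248), 1.25-fold. Leaving out WT replicate 1 made it -0.43 with an adjusted p of 0.101, and over all omissions the adjusted p reached 0.533. Slc4a9, a basolateral transporter of type B cells, read 7.59, 7.46 and 7.37 in ERRa KO arrays and 7.68, 7.94 and 7.93 in WT arrays. These did not overlap either, with WT replicate 1 again the lowest WT array. The difference was -0.38 (SE 0.09, adjusted p = 0.15), 1.30-fold.

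**Figure D2:**
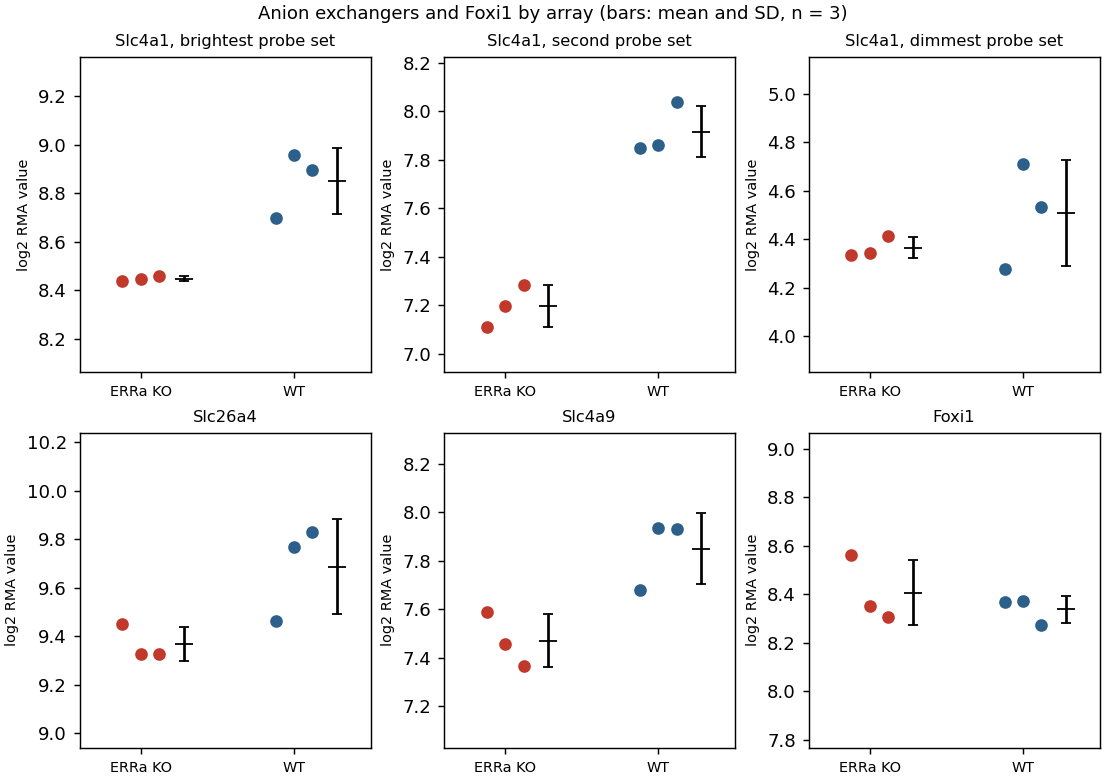
Log2 RMA value of each array for the 3 probe sets of Slc4a1, for Slc26a4, Slc4a9 and Foxi1, ERRa KO left of WT, on vertical axes of equal length; black bars give the mean and SD of 3 arrays. The genotypes do not overlap for the brighter 2 Slc4a1 probe sets, Slc26a4 and Slc4a9, and overlap for the dimmest Slc4a1 probe set and Foxi1.

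Foxi1 is the forkhead transcription factor that intercalated cells need to form. It read 8.56, 8.35 and 8.31 in ERRa KO arrays and 8.37, 8.37 and 8.28 in WT arrays. The genotypes overlapped, and ERRa KO replicate 1 was the highest array. The difference was 0.07 with a 95% interval from -0.11 to 0.25 (adjusted p = 0.771), and it became -0.0085 without ERRa KO replicate 1. Hmx2, a homeobox transcription factor, read 5.82, 6.08 and 6.09 in ERRa KO arrays and 6.07, 6.16 and 6.12 in WT arrays, with 1 low array, ERRa KO replicate 1 (log2 change -0.12, adjusted p = 0.615).

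The ammonia channels and the alkali sensor read lower without being called. Rhcg, the ammonia channel of the apical and basolateral membranes, read 9.83, 9.66 and 9.73 in ERRa KO arrays and 9.83, 10.01 and 9.98 in WT arrays. ERRa KO replicate 1 and WT replicate 1 were almost level and the other arrays were apart (log2 change -0.20, SE 0.07, adjusted p = 0.327). Rhbg, its basolateral relative, read 8.44, 8.32 and 8.48 in ERRa KO arrays and 8.36, 8.60 and 8.52 in WT arrays. These overlapped (log2 change -0.08, 95% interval -0.27 to 0.10, adjusted p = 0.724). Insrr, an insulin receptor relative that senses alkaline fluid and is found in type B cells, read 6.17, 5.99 and 6.08 in ERRa KO arrays and 6.11, 6.38 and 6.24 in WT arrays (log2 change -0.16, SE 0.08, adjusted p = 0.502). Of the WT arrays, replicate 1 alone fell within the range of the ERRa KO arrays. Atp6ap1, an accessory protein needed to assemble the V0 sector, read 10.93, 11.00 and 10.96 in ERRa KO arrays and 11.00, 11.08 and 11.15 in WT arrays (log2 change -0.11, adjusted p = 0.513). WT replicate 1 lay just below the highest ERRa KO array.

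WT replicate 1 recurs as the WT array nearest to ERRa KO. It was the lowest WT array in 8 of the 9 genes outside the pump, all but Foxi1, and in 16 of the 29, against 34.0% of all genes. Markers of principal cells, the neighbouring cell type of the collecting duct, averaged -0.14, 0.01 and 0.13 from the WT mean in the WT arrays. In the ERRa KO arrays they averaged -0.04, -0.10 and -0.01. Also in WT replicate 1, markers of the thick ascending limb and distal tubule averaged -0.10 and other intercalated cell genes -0.08. Proximal tubule markers averaged 0.01 there. The part of any of these cell types in the low values of WT replicate 1 was not tested.

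The 4 kidney-enriched isoforms of the pump all had a mean below WT, with a median log2 change of -0.17, and none was called. In the V0 sector, Atp6v0d2, the d subunit isoform found in intercalated cells, osteoclasts and some macrophages, read 8.21, 8.16 and 8.22 in ERRa KO arrays and 8.31, 8.51 and 8.49 in WT arrays. The genotypes did not overlap (log2 change -0.24, SE 0.07, adjusted p = 0.221). Its second probe set gave the same difference, -0.24. Of 11 macrophage and osteoclast markers, 5 read lower and 2 higher at an unadjusted p under 0.05, none was called by limma, and their median log2 change was -0.03. C1qc, a complement gene of macrophages, read -0.32 (adjusted p = 0.12), while Acp5, an osteoclast and macrophage phosphatase, read 0.19 (adjusted p = 0.212). Their part in the Atp6v0d2 values was not tested.

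Atp6v0a4, the a subunit isoform whose loss causes distal renal tubular acidosis in people, read 8.77, 8.63 and 8.64 in ERRa KO arrays and 8.68, 8.76 and 8.91 in WT arrays. The genotypes overlapped (log2 change -0.10, SE 0.08, adjusted p = 0.646). In the V1 sector, Atp6v1b1, the B subunit isoform of intercalated cells and another gene of that disease, read 8.44, 8.10 and 7.88 in ERRa KO arrays and 8.29, 8.28 and 8.09 in WT arrays. The ERRa KO arrays held both the highest and the lowest value, and the 95% interval of the difference, -0.40 to 0.23, was the widest of the 29 genes (log2 change -0.08, adjusted p = 0.842). The sign turned to 0.04 without ERRa KO replicate 3. That array carried the liver transcripts, whose part in the Atp6v1b1 values was not tested. Atp6v1c2, a C subunit isoform of kidney and lung, read 6.13, 6.33 and 6.13 in ERRa KO arrays and 6.32, 6.43 and 6.55 in WT arrays. WT replicate 1 fell just below the highest ERRa KO array (log2 change -0.24, SE 0.08, adjusted p = 0.307).

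The common partners of these isoforms lay closer to WT. Atp6v0d1, the d subunit of all cells, read 10.94, 10.95 and 10.89 in ERRa KO arrays and 11.00, 11.00 and 11.02 in WT arrays. The gap of -0.08 is small but the arrays did not overlap (SE 0.05, adjusted p = 0.604). Atp6v0a1, an a subunit of endosomes and nerve endings, read 8.16, 8.12 and 8.15 in ERRa KO arrays and 8.26, 8.21 and 8.07 in WT arrays, a log2 change of -0.04 that turned to 0.0035 without WT replicate 1. For Atp6v1b2, the common B subunit, the values were 11.34, 11.24 and 11.27 in ERRa KO arrays and 11.22, 11.22 and 11.29 in WT arrays (log2 change 0.04). For Atp6v1c1, the common C subunit, they were 10.25, 10.14 and 10.04 in ERRa KO arrays and 10.11, 10.09 and 10.13 in WT arrays (log2 change 0.03, and -0.02 without ERRa KO replicate 1). The genotypes overlapped for these 3 genes.

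Whether an isoform changed unlike its partner was asked by taking their log2 difference within each array. For C, Atp6v1c2 minus Atp6v1c1, this difference moved by -0.27 in ERRa KO relative to WT and the arrays did not overlap. For d, Atp6v0d2 minus Atp6v0d1, it moved by -0.16, for B, Atp6v1b1 minus Atp6v1b2, by -0.12, and for a, Atp6v0a4 minus Atp6v0a1, by -0.06. The exact two-sided permutation p-values were 0.1 for C, 0.2 for d, 0.7 for B and 0.8 for a, with 3 arrays per genotype. Adjusted over the 4 pairs they were 0.4, 0.4, 0.8 and 0.8, and 0.1 is the smallest p that this design allows, so no pair could pass. The a pair turned to 0.05 without WT replicate 3. The B pair was -0.25 without ERRa KO replicate 1, -0.21 without WT replicate 3, -0.08 without WT replicate 1 or 2, and -0.00058 without ERRa KO replicate 3, so its size rests on single arrays.

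**Figure D3:**
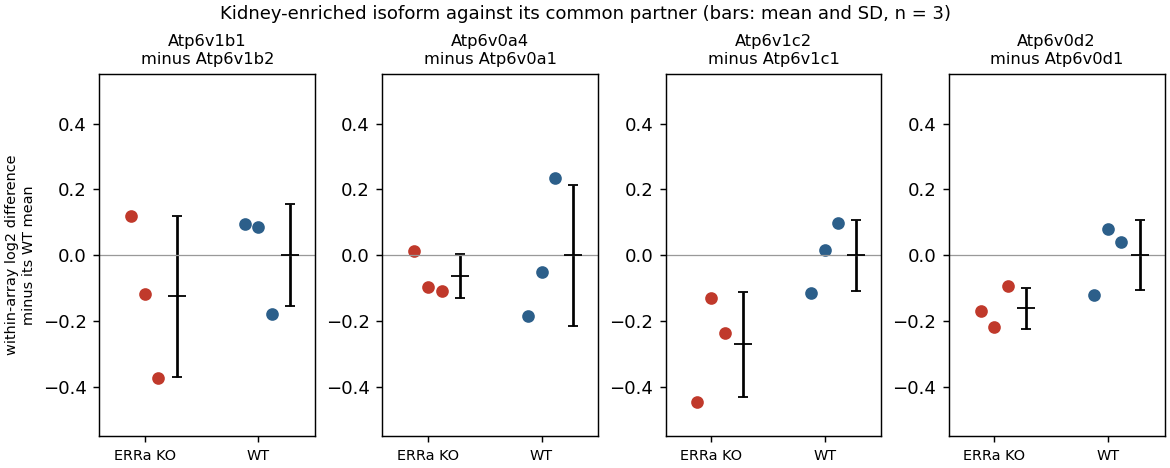
Within-array log2 difference between each kidney-enriched isoform and its common partner, minus the WT mean of that difference, ERRa KO left of WT; black bars give the mean and SD of 3 arrays. All 4 ERRa KO means lie below 0, from -0.27 for the C pair to -0.06 for the a pair, and the arrays are apart only for the C pair.

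Among the other pump genes, Atp6v1f, the F subunit of the V1 stalk, was the only gene of the 29 with every ERRa KO array above every WT array. It read 11.50, 11.44 and 11.38 in ERRa KO arrays and 11.17, 11.23 and 11.33 in WT arrays (log2 change 0.19, SE 0.06, adjusted p = 0.283). Of the 3 probe sets of Atp6v1g1, the common G subunit, all read higher, and the middle one read 11.02, 10.91 and 10.77 in ERRa KO arrays and 10.66, 10.61 and 10.67 in WT arrays. The genotypes did not overlap on that probe set (log2 change 0.25, adjusted p = 0.293) or on the dimmest (0.11), but overlapped on the brightest (log2 change 0.06, adjusted p = 0.718 in the gene table).

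All 8 measured V0 subunits had a mean below WT, with a median of -0.10, and 6 of the 12 V1 subunits did, with a median of 0.0023. These signs are those of the brightest probe set. Of the 12 members with several probe sets, 5 had probe sets of opposite sign. They were Atp6v0a1 in V0 and Atp6v1a, Atp6v1b2, Atp6v1c1 and Atp6v1e1 in V1. Atp6v0e, a small membrane subunit, read 10.95, 11.01 and 11.01 in ERRa KO arrays and 11.03, 11.13 and 11.20 in WT arrays (log2 change -0.13, adjusted p = 0.469). Its genotypes did not overlap. Atp6v0b, part of the proteolipid ring through which protons pass, did not overlap either, at 11.17, 11.18 and 11.11 in ERRa KO arrays and 11.21, 11.30 and 11.18 in WT arrays (log2 change -0.08, adjusted p = 0.622). Atp6v0a2, the a subunit of the Golgi, read 8.83, 8.99 and 8.88 in ERRa KO arrays and 9.10, 9.05 and 8.95 in WT arrays (log2 change -0.13, adjusted p = 0.497). Its 3 probe sets all read lower, between -0.19 and -0.13. Atp6v0e2, an isoform of the e subunit, read 9.29, 9.16 and 9.25 in ERRa KO arrays and 9.29, 9.29 and 9.41 in WT arrays (log2 change -0.10, adjusted p = 0.596).

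Of the V1 subunits not yet described, Atp6v1d, part of the central rotating stalk, read 11.19, 11.19 and 11.25 in ERRa KO arrays and 11.33, 11.25 and 11.29 in WT arrays. The lowest WT array lay at the highest ERRa KO array (log2 change -0.08, adjusted p = 0.621). The 3 probe sets of Atp6v1d all read lower, and on the dimmest the genotypes did not overlap (-0.13, adjusted p = 0.546 over all probe sets). Atp6v1a, the subunit that splits ATP, read 0.07 higher in ERRa KO with overlapping arrays. Atp6v1h, a regulatory subunit, read -0.05, and Atp6v1e1, of the outer stalk, -0.03. The isoforms Atp6v1e2, known from testis, and Atp6v1g2, known from brain, read -0.0082 and 0.01. Their adjusted p-values lay between 0.72 and 0.975. The 3 probe sets of Atp6v1h all read lower, and on the middle one the genotypes did not overlap (-0.25, adjusted p = 0.395 over all probe sets). That probe set is dim, at 4.22 on average in ERRa KO arrays and 4.47 in WT arrays.

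**Figure D4:**
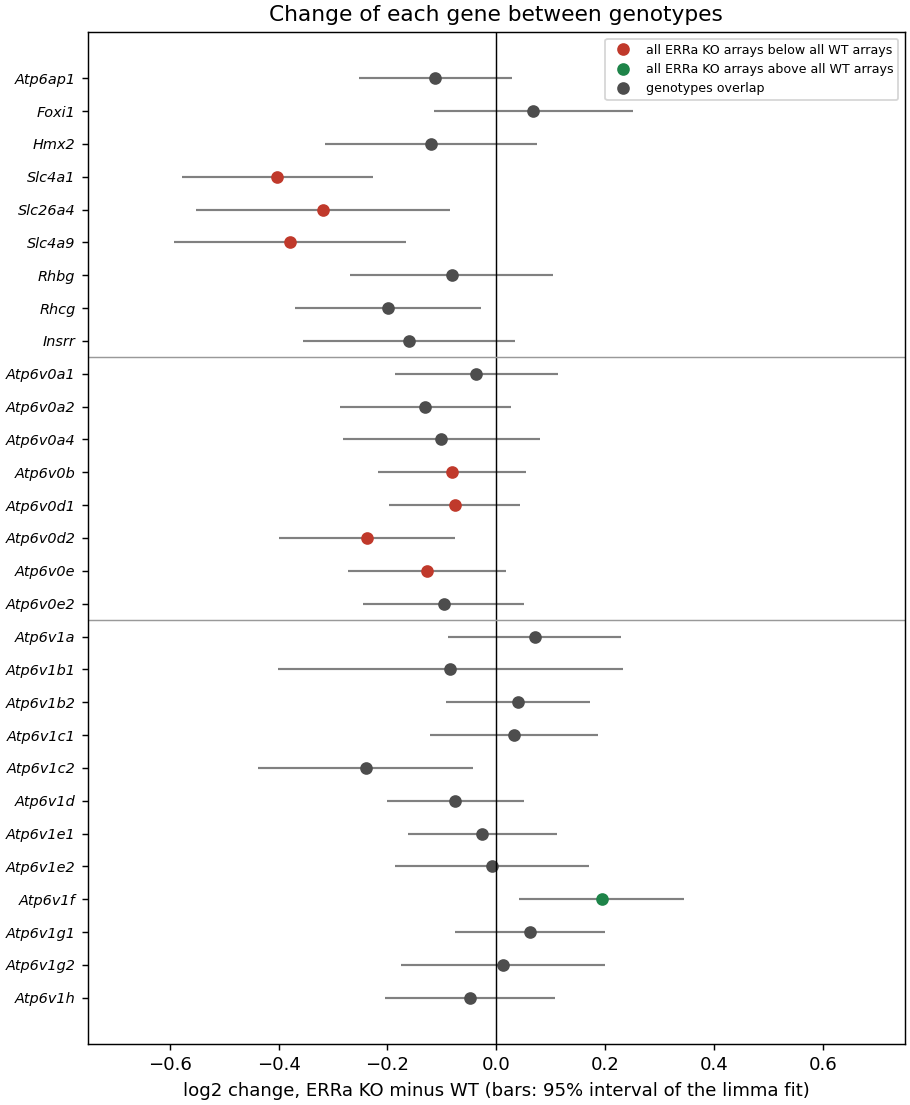
Log2 change of each of the 29 genes, ERRa KO minus WT, with the 95% interval of the limma fit; red and green points mark genes whose ERRa KO arrays lie all below or all above the WT arrays. The points of all 8 V0 subunits lie left of 0, those of the V1 subunits on both sides, and none of the 29 passed the adjusted threshold.

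RefSeq promoters, 250 bases before to 50 after the start of a gene on build GRCm38.p6, were available for 19 of the 29 genes, in 21 windows. Slc4a1, Slc4a9 and Atp6v0d2 were among the genes without a window, so their promoters were not searched. The extended response element that ERRα binds, TNAAGGTCA, and its core AAGGTCA were searched on both strands. They were found in 0 of these windows, against 1.28% and 4.72% of all 32851 promoters. At shares this low, 0 matches in 21 windows cannot tell these genes from others. A forkhead core, TGTTTNC, was in 4 of the 21 windows, those of Atp6ap1, Atp6v1b1, Foxi1 and Slc26a4, and in 20.5% of all promoters. That count is close to the share of all promoters and does not set these genes apart. The palindrome TCACGTGA, which lies within the element bound by the lysosome regulator TFEB, was in 3 genes, Atp6v0d1, Atp6v0e and Atp6v1a, and in 0.974% of all. Its core CACGTG was in those 3 and in Atp6v0b, and in 7.15% of all. A match in these letters is a description and not a binding site.

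As examples of windows that hold these letters, chosen because they do, the promoters of Slc26a4 and Atp6v1b1 are printed with the TGTTTNC match in capitals, and those of Atp6v0e and Atp6v1a with the TCACGTGA match in capitals. Each is 300 bases, 5′ to 3′ on the gene's strand.
Slc26a4, chr12:31559935-31560234, minus strand: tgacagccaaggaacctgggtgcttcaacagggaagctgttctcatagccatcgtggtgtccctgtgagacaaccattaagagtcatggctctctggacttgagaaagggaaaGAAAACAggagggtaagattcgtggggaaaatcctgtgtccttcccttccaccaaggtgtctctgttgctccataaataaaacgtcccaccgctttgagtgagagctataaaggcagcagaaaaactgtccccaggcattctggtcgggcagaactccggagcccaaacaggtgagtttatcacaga
Atp6v1b1, chr6:83742767-83743066, plus strand: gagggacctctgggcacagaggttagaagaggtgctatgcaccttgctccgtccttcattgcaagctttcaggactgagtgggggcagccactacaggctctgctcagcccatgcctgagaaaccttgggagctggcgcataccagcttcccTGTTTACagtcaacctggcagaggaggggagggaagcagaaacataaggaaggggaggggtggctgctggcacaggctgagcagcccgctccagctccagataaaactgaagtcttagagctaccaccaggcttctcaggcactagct
Atp6v0e, chr17:26676146-26676445, plus strand: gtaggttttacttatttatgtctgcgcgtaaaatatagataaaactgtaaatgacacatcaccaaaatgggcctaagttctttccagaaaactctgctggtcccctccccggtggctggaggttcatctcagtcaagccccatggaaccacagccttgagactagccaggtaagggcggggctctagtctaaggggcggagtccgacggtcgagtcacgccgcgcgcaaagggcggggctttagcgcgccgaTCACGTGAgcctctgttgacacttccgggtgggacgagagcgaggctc
Atp6v1a, chr16:44139210-44139509, minus strand: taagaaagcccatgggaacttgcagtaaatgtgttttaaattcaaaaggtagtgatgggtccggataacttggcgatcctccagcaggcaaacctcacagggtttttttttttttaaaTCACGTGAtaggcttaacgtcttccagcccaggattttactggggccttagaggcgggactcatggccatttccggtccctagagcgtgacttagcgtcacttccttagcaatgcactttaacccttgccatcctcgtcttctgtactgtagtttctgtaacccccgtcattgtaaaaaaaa
Counted from the gene's start, the Slc26a4 match, on the reverse strand, begins at -137 and the Atp6v1b1 match at -98. The Atp6v1a match begins at -132 and the Atp6v0e match at 2.

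Other genes known from intercalated cells included called changes in both directions. Of 24 measured, 18 read lower and 6 higher, with a median log2 change of -0.11, where 47.4% of all genes read lower. At an unadjusted p under 0.05, 8 read lower and 3 higher, against 6.2% and 6.22% of all genes. By limma 2 fell and 1 rose, where 0.495% of all genes were called. Atp4a, which encodes the catalytic chain of the stomach's proton-potassium pump and is also found in intercalated cells, read 9.37, 9.40 and 9.47 in ERRa KO arrays and 7.76, 7.95 and 7.95 in WT arrays, a rise of 1.53 on the log2 scale (SE 0.07, adjusted p = 0.000381). Hepacam2, an adhesion protein of intercalated cells, read 6.15, 6.30 and 6.15 in ERRa KO arrays and 6.67, 6.78 and 6.78 in WT arrays, so it fell by 0.54 (SE 0.07, adjusted p = 0.0307). Avpr1a, the vasopressin receptor of these cells, fell by 0.56 (SE 0.07, adjusted p = 0.033). Atp4a was called in 12 of 13 alternatives, all but the equal-variance test (adjusted p = 0.0908). The calls of Hepacam2 and Avpr1a were lost with any 1 array left out (adjusted p from 0.0636 to 0.121 and from 0.0576 to 0.139), with the replicate number as a block (0.0756 for each) and with the equal-variance test (0.179 and 0.212). Aqp6, a water and anion channel of type A cells, read 8.46, 8.36 and 8.35 in ERRa KO arrays and 8.81, 8.99 and 9.23 in WT arrays (log2 change -0.62, adjusted p = 0.0668). The mean of the Aqp6 probe sets gave -0.31 (adjusted p = 0.0699), and Aqp6 was called in 3 of 13 alternatives. Unlike the exchangers among the members, the anion exchanger genes Slc26a7 and Slc4a8 of this list had means above WT. They read 0.34 and 0.06 (limma adjusted p = 0.268 and 0.858), and every ERRa KO array lay above every WT array for Slc26a7 alone.

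Markers of other tubule segments were read beside them. Of 11 markers of the thick ascending limb and distal tubule 10 read lower, with a median log2 change of -0.15, and 0 were called by limma with 4 at an unadjusted p under 0.05. Cldn16, a paracellular magnesium channel, had the smallest p (-0.38, adjusted p = 0.052), followed by Umod (-0.29, adjusted p = 0.159) and the calcium-binding protein gene Calb1, whose difference was larger (-0.55, adjusted p = 0.162). Among 13 principal cell markers, 7 means lay below WT and 6 above (median -0.03), 5 and 2 of them at an unadjusted p under 0.05, and limma called 0. The sodium channel subunit gene Scnn1g read -0.30 (adjusted p = 0.164) and Fxyd4, a regulator of the sodium pump, 0.25 (adjusted p = 0.255). Among 14 proximal tubule markers, 5 means lay below WT and 9 above (median 0.02), and 0 were called by limma, with 2 at an unadjusted p under 0.05. The glucose transporter Slc5a2 had the smallest p, at 0.26 (adjusted p = 0.143). The part of any shift in the shares of these cell types was not tested.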

How the data were processed

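The authors deposited log2 values made with RMA, per the submitters' processing notes, which corrects background, quantile normalizes and summarises probes, so low levels are compressed. RMA's version is not given in the sources used here. A second table holds, for each probe set, a deposited log2 fold change and p-value, the p-value unadjusted. In it the 2 genotypes' values stand under exchanged column heads for 45037 of 45037 probe sets, while its fold change follows the series table to within 7.8e-07, so genotypes were taken from the series table by sample.

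Of 45101 probe sets, 64 controls were left out. A platform annotation names 1 gene for 34945, several for 932 and none for 9160. Where several probe sets name a gene, the brightest by mean over the 6 arrays stood for it, which gave 18193 genes. Symbols were checked by gene identifier against GRCm38.p6, and no filter on low values was used. Limma 3.58.1 in R 4.3.3 (lmFit, eBayes, two-sided, genotype alone) was fitted over all genes and, separately, over all probe sets, and was tested on simulated data. Isoform pairs were compared by exact permutation. No list was tested as a set.

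All members are named. Array values are given for the members outside the pump, the kidney-enriched isoforms and their partners, the 6 other pump genes with the smallest p and Slc4a1's probe sets, and of each other list at most the 4 genes with the smallest p. Acp5, Slc22a6, Slc26a7, Slc4a8, the middle probe sets of Atp6v1g1 and Atp6v1h and the dimmest of Atp6v1d were chosen after their values were seen. The members and lists were chosen with earlier results of these data known, and the red cell list was added after the data were seen. Alternatives were the mean of a gene's probe sets, genes above the median level, the replicate number as a block, array weights, a repeated quantile normalization, another variance prior, an equal-variance test and leaving out each array. Deviations of same-numbered arrays correlated between -0.078 and -0.0031. These values show no pairing by number, but with 3 arrays per genotype they cannot exclude it, and the labels do not say. Arrays shared at most 131 identical values, had medians between 5.01 and 5.05 and correlated between 0.994 and 0.998. Their number, 3 per genotype, limits the precision.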

Additional observations from a re-analysis of the deposited data

How the results depend on the processing

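The 3 arrays per genotype limit the precision. Of 29 members, 22 kept their sign under each alternative run and 7 did not. At the gene level, 1 member was called among genes above the median level and 1 with a trended and robust prior, both times Slc4a1, and 0 under the other alternatives. Among probe sets, 2 were called under each of those settings, both of Slc4a1. The count was 0 with the equal-variance test, with the replicate block and without any 1 array. The level filter, array weights and the trended and robust prior also called Aqp6 and Cldn16, which the main fit did not. The mean of all probe sets called Cldn16 as well. The trended and robust prior further called the principal cell marker Kcnj1 and Umod, both lower. It also called the proximal tubule markers Slc5a2 and Slc22a8, both higher. The shares of all genes and probe sets called in those settings are not given here. In the gene table the replicate block had no call of a member to end, as the main fit called none. It ended the call of the second Slc4a1 probe set and those of Hepacam2, Avpr1a and Aldoa. With the mean of all probe sets, 2 members read higher at an unadjusted p under 0.05 and 2 lay higher in all arrays. The shares of all genes under this setting are not given here. Nor are those at an unadjusted p under 0.05 with 1 array left out, so these counts have no background beside them. Leaving out 1 array gave 3 to 8 members lower and 0 to 1 higher at an unadjusted p under 0.05, 8 to 13 lower and 1 to 2 higher in all ERRa KO arrays (against 13.7% to 15.5% and 12.7% to 17% of all genes), a median of -0.073 to -0.034 for the pump subunits (the value nearest 0 without ERRa KO replicate 3), -0.16 to 0.054 for the a isoform pair and -0.25 to -0.00058 for the B pair. Signs turned within these ranges for Atp6v0a1 (-0.090 to 0.0035), Atp6v1b1 (-0.23 to 0.045), Atp6v1c1 (-0.021 to 0.082), Atp6v1e1 (-0.051 to 0.017), Atp6v1e2 (-0.084 to 0.044), Atp6v1g2 (-0.066 to 0.079) and Foxi1 (-0.0085 to 0.12), and for Atp6v1g2 with array weights (-0.028). The cause was not tested.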

Other observations

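Beyond the kidney tubule, genes tied to the pump in other ways were read. Of 22 lysosome genes, the organelle the common pump acidifies, 15 had a mean below WT and 7 above it, the median difference was -0.04 on the log2 scale, and 0 were called by limma, with 2 lower and 2 higher at an unadjusted p under 0.05. The lysosomal enzymes Neu1 and Ctsd read 0.21 and 0.16 (adjusted p = 0.26 and 0.303), and the membrane protein Scarb2 and the transcription factor Mitf -0.18 and -0.24 (adjusted p = 0.247 and 0.346).

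Of 13 measured genes of pump assembly and binding partners outside the member rule, 10 read lower and 3 higher, and 1 was called. Aldoa, a glycolytic aldolase that binds the pump, read 12.67, 12.75 and 12.66 in ERRa KO arrays and 12.24, 12.24 and 12.11 in WT arrays, a rise of 0.50 on the log2 scale (SE 0.06, adjusted p = 0.0307), a call lost with any 1 array left out (adjusted p from 0.0673 to 0.118), with the replicate number as a block (0.082) and with the equal-variance test (0.179). Tbc1d24 and Ncoa7, 2 proteins with a domain that binds the V1 sector, read -0.32 and -0.25 (adjusted p = 0.123 and 0.316).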
